A study of Mus musculus with 6 samples.

Results

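The core of the mammalian circadian clock and the E-box repressor Bhlhe40 were followed in mouse pancreatic duct cells in which a hairpin against Atoh8 was set against a scrambled hairpin. The genes were chosen by name: Bhlhe40, Bhlhe41, Per1, Per2, Per3, Cry1, Cry2, Nr1d1, Nr1d2 and Dbp, 10 of the 18193 genes that the arrays measured. This choice was made with earlier results of these data known. All 10 had a probe set annotated with exactly 1 gene symbol, 20 probe sets in all. For each gene the probe set that was brightest on average over the 6 arrays is given as the gene's value, and its other probe sets stand beside it.

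The cells were of the mPAC L20 line, derived from mouse pancreatic duct, and all of them received an adenovirus that expresses Neurog3, the factor that starts endocrine differentiation, from a CMV promoter. The shAtoh8 group (3 arrays) also received an adenovirus with a hairpin against Atoh8, also called Math6, a basic helix-loop-helix transcription factor. The shControl group (3 arrays) received an adenovirus with a scrambled hairpin in its place. Both viruses were added at a multiplicity of infection of 40. Cells were exposed to the hairpin virus for 4 h and to the Neurog3 virus for 1.5 h, then cultured for a further 44 to 46 h. The replicates were separate experiments, per the labels. The groups were compared at 1 stage after infection, so the daily phase of the cells was not measured. The labels name 1 hairpin virus against Atoh8.

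In the clock, the activators CLOCK and BMAL1 (the product of Arntl) bind E-box elements and switch on the Per and Cry genes, whose proteins return to repress them. The same activators drive Nr1d1 and Nr1d2, whose REV-ERB receptors repress Arntl at elements where ROR receptors activate it, and Dbp, which carries the rhythm on through D-box elements. BHLHE40 and BHLHE41, also known as DEC1 and DEC2, are repressors that bind the E-boxes themselves. In the pancreas the clock is known for timing insulin secretion in islets.

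Values are log2 signals, and probe sets differ in how strongly they bind their transcript, so no gene's level is set against another gene's here. In these bulk samples, fewer cells of a type and less RNA per cell cannot be told apart. Array medians lay between 5.49 and 5.56. The 18 hybridisation spike probe sets averaged 9.89 on the shAtoh8 replicate 2 array and 10.2 to 10.5 on the other arrays. Of 9 duct markers 7 matched a probe set, and all 7 lay above the median level of the probe sets. Krt8 averaged 13.9 in shAtoh8 and 13.8 in shControl, a log2 fold change of 0.06. The other duct markers were below 0: Krt19 at -0.03, Krt7 at -0.25, Krt18 at -0.07, Sox9 at -0.05, Epcam at -0.73 and Cdh1 at -0.14. For Krt7 every shAtoh8 array was below every shControl array (limma adjusted p = 0.263). Epcam, a duct marker, fell with the replicate block (adjusted p = 0.0463), and Lyz2, 1 of 4 immune markers, rose. The 7 duct markers summed to 79.4 to 80.3 (log2 signal) on the shAtoh8 arrays and 80.8 to 81.5 on the shControl arrays. The 4 immune markers summed to 23.1 to 23.5 on the shAtoh8 arrays and 22.3 to 23.0 on the shControl arrays. A single gene weighs heavily in each of these sums. Epcam had the largest change of the duct markers and Lyz2, at a log2 fold change of 0.75, that of the immune markers. Ptprc read 0.11, Cd3e 0.07 and Cd68 -0.36 (log2 fold change). Sums of the acinar, endocrine, mesenchymal and endothelial markers overlapped between the groups. The part of these markers in the results was not tested. The other immune markers did not pass: Ptprc, the pan-leukocyte marker, averaged 3.70 in shAtoh8 and 3.59 in shControl, Cd3e 6.19 in shAtoh8 and 6.12 in shControl, and Cd68 6.44 in shAtoh8 and 6.81 in shControl. Atoh8, the hairpin's target, read 7.83, 7.90 and 7.37 in shAtoh8 and 8.75, 8.29 and 7.52 in shControl (log2 signal, replicates 1 to 3), a difference that did not pass the test (limma adjusted p = 0.573, and 0.157 with the replicate block). The 2 probe sets of Neurog3 gave log2 fold changes of -0.57 and 0.18. The set at -0.57 missed the threshold (adjusted p = 0.706) and passed with the replicate block (0.0330). It read 6.78, 6.06 and 5.33 in shAtoh8, against 7.45, 6.64 and 5.79 in shControl. The other set read 6.66, 6.38 and 6.22 in shAtoh8, against 6.43, 6.38 and 5.92 in shControl. Both sets thus fell from replicate 1 to replicate 3 in both groups.

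Among the promoters of the clock genes, those with an E-box are shown because BHLHE40 and BHLHE41 are known to bind that element, and Cry2 is shown as the paralogue of Cry1. The RefSeq promoter table (GRCm38.p6) gives 250 bases before and 50 after each start it lists for a gene. It matched 8 of the 10 genes, with 9 windows; Bhlhe40 and Per2 were the others. Motifs were searched on both strands, and capitals mark the E-box CACGTG and its variant CACGTT, which reads AACGTG on the printed strand.
Cry1: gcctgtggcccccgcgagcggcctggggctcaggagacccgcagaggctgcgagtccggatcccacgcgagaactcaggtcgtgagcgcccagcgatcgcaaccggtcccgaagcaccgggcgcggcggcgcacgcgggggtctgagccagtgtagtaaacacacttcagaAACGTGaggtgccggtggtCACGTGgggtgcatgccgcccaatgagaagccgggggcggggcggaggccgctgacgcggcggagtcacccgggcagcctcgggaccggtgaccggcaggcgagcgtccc
Cry2: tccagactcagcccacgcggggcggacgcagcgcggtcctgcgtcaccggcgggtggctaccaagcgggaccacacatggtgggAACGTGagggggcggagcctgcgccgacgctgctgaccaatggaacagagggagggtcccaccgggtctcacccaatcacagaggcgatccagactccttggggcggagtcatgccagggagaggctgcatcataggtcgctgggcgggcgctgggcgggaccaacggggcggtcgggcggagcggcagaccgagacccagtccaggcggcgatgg
Bhlhe41: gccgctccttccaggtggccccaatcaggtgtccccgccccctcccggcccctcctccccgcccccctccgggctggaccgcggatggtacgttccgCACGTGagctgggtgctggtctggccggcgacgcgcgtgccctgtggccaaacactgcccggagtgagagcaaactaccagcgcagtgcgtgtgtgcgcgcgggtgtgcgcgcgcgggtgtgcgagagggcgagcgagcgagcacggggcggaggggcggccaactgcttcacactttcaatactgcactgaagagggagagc
Per1: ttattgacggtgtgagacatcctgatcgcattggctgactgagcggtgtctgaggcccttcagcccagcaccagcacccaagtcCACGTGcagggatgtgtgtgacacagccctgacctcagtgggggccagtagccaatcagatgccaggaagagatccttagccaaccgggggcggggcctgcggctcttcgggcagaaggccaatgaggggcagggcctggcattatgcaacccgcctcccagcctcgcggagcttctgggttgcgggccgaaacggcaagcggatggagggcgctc

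The Cry1 window is chr10:85185005-85185304 on the minus strand, with the E-box at -60 and the variant at -79 from the start in the table. The Cry2 window is chr2:92434020-92434319 (minus), with the variant E-box at -166. The Bhlhe41 window is chr6:145865371-145865670 (minus), with the E-box at -153. Per1 had a pair of windows, whose starts lie inside the span given for the gene below. The printed window is chr11:69098699-69098998 (plus), with the E-box at -166 from that internal start, and the other, chr11:69099902-69100201, held 0 matches to any of the motifs. In all, 3 of the 9 windows held CACGTG, against 7.15% of the 32851 promoters in the table, and 3 held CACGTT, against 4.68%. The third window with CACGTT was that of Nr1d1. The D-box TTANGTAA (N is any base) was in the Per3 window alone, at -205 and -158, and in 2.32% of all promoters. The ROR element (AAN followed by TAGGTCA, 0.219% of all promoters) and the CRE TGACGTCA (1.79%) were in none of the 9. These matches describe the letters and are not evidence of binding.

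Whether the clock genes differ between the hairpins was asked with limma, fitted to all 45037 probe sets without a filter on brightness and adjusted over them by the Benjamini-Hochberg method. Of the 10 genes 1 passed at an adjusted p under 0.05, Cry1, which was lower in shAtoh8. Over all genes 1.15% passed, 0.638% lower and 0.517% higher. The 10 were chosen with earlier results of these data known, so the shares of all genes beside these counts are a description. With the replicate number as a block, which compares shAtoh8 with shControl within each number, 2 passed, Cry1 and Bhlhe40, both lower, where 4.67% of all genes passed, 2.75% lower and 1.92% higher. At an unadjusted p under 0.05 there were 3 of the 10, all lower (Bhlhe40, Bhlhe41 and Cry1), where 8.82% of all genes were lower and 8.72% higher. The median log2 fold change of the 10 was -0.11, against 0.01 over all genes, and 6 of the 10 were below 0, as were 46.9% of all genes. The groups did not overlap for 4 of the 10 (24.0% of all genes). Bhlhe40, Bhlhe41 and Cry1 had all shAtoh8 arrays below (11.4% of all genes), and Cry2 had all above (12.6%). In 5 of the 10 the 3 pairs had the same sign (45.5% of all genes). Of these, Bhlhe40, Bhlhe41, Cry1 and Nr1d1 were lower in every pair (21.5% of all genes), and Cry2 was higher in every pair (24.0%).

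**Figure D1:**
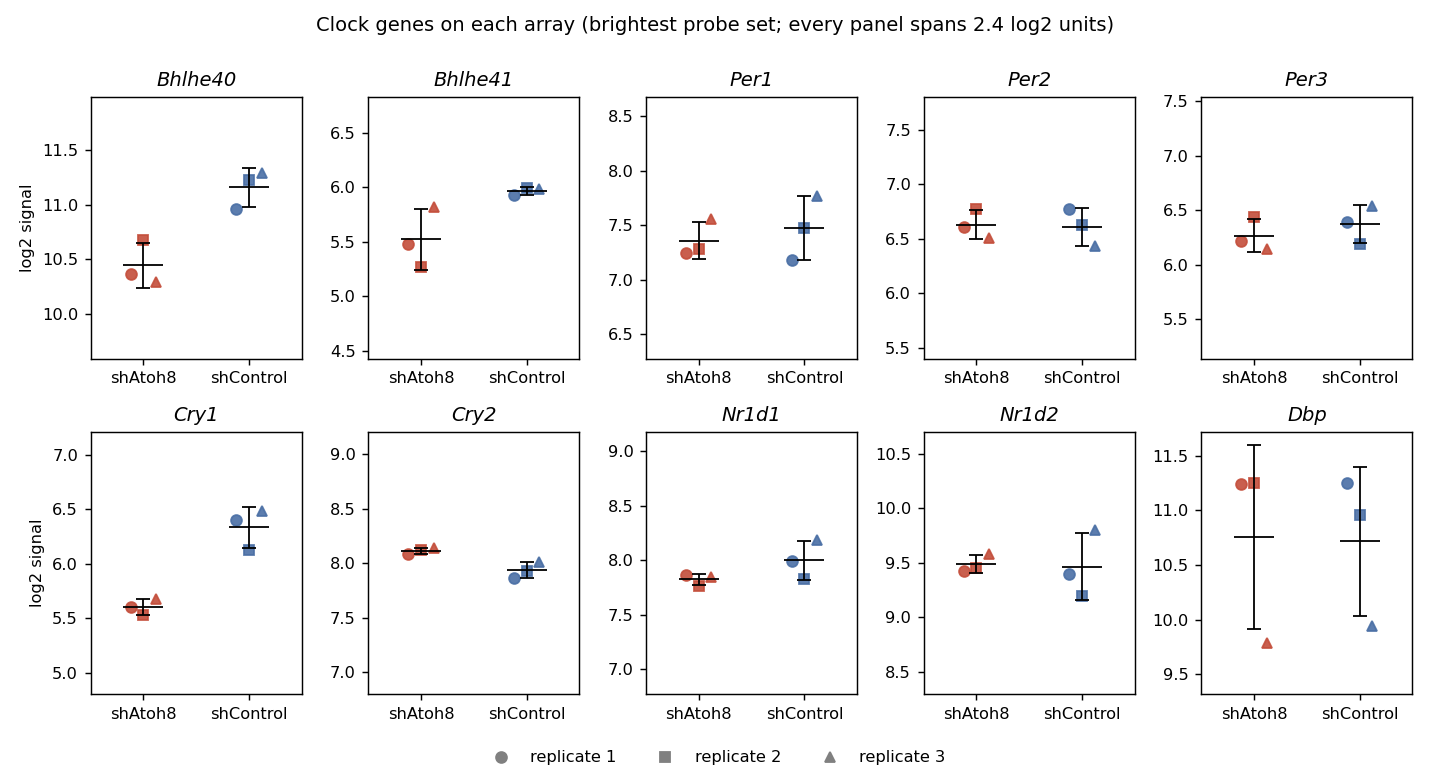
Log2 signal of each clock gene's brightest probe set on the 6 arrays, shAtoh8 left of shControl, with marks for the replicate number and black bars for the mean and SD (n = 3 each). Bhlhe40, Bhlhe41 and Cry1 have all 3 shAtoh8 arrays below the shControl arrays, and Dbp is lowest in replicate 3 of both groups.

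Bhlhe40 (GRCm38.p6, chr6:108660629-108666925), the E-box repressor, read 10.37, 10.68 and 10.29 in shAtoh8, against 10.96, 11.23 and 11.29 in shControl (log2 signal, replicates 1, 2 and 3). Every shAtoh8 array was below every shControl array. The means were 10.45 ± 0.21 in shAtoh8 and 11.16 ± 0.18 in shControl (SD, n = 3 each). This is 1.64-fold lower, or -0.71 ± 0.14 (SE) in log2. Its 95% interval ran from -1.03 to -0.40. The difference missed the threshold in limma (adjusted p = 0.0694), and Bhlhe40 fell with the replicate block (adjusted p = 0.0375). Within replicate numbers 1, 2 and 3 it was lower by log2 differences of -0.59, -0.55 and -1.002. A single probe set reads this gene, so no other set could be compared.

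Bhlhe41 (chr6:145858243-145865420), its paralogue and also an E-box repressor, read 5.48, 5.27 and 5.82 in shAtoh8, against 5.93, 5.99 and 5.98 in shControl. The groups did not overlap, but the highest shAtoh8 array lay close to the lowest shControl array. The log2 fold change was -0.44 ± 0.14 (SE), at adjusted p = 0.207 in limma and 0.119 in the blocked fit. The pairs gave -0.45, -0.72 and -0.16. The other probe set, at a mean of 3.80 in shAtoh8 and 3.83 in shControl, read -0.02 ± 0.12 with overlapping groups (adjusted p = 0.968). As the mean of its probe sets Bhlhe41 read -0.23.

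Of the cryptochromes, the PER partners that repress CLOCK and BMAL1, Cry1 fell and Cry2 read slightly higher. Cry1 (chr10:85131700-85185054) read 5.61, 5.53 and 5.68 in shAtoh8, against 6.40, 6.13 and 6.48 in shControl. The groups were apart by more than either group's own spread, with means of 5.60 ± 0.07 in shAtoh8 and 6.34 ± 0.19 in shControl (SD, n = 3 each). The log2 fold change was -0.73 ± 0.11 (SE), 1.66-fold lower (limma adjusted p = 0.0439, and 0.0240 with the replicate block), and the pairs gave -0.80, -0.59 and -0.81. The call of Cry1 was lost when any single array was left out (adjusted p from 0.0801 without shAtoh8 replicate 2 to 0.135 without shAtoh8 replicate 1), at log2 fold changes of -0.84 to -0.66. Its only probe set has the suffix _a_at, which the array maker gives to sets that match several transcripts of a gene.

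Cry2 (chr2:92403646-92434085) read 8.09, 8.12 and 8.14 in shAtoh8, against 7.87, 7.93 and 8.01 in shControl. All shAtoh8 arrays were above the shControl arrays, by a small margin. The log2 fold change was 0.18 ± 0.08 (SE), and its 95% interval ran from -0.01 to 0.36 (limma adjusted p = 0.388, and 0.322 with the replicate block). The pairs gave 0.22, 0.18 and 0.12.

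The responses of paralogues were compared directly, as the log2 value of the first gene minus that of the second on each array, for 4 pairs of genes. For Cry1 minus Cry2 this was lower in shAtoh8 by 0.91: the value was -2.48, -2.58 and -2.46 in shAtoh8, against -1.46, -1.81 and -1.53 in shControl. The groups did not overlap, and the exact two-sided permutation p was 0.1, the smallest that 3 arrays against 3 can give. Within replicate numbers the Cry1 minus Cry2 difference was -1.02, -0.78 and -0.93. For Bhlhe40 minus Bhlhe41 the groups overlapped, with a difference of -0.27 (exact permutation p = 0.5) and pair values of -0.14, 0.18 and -0.84, so the paralogues were not shown to differ in response. Per1 minus Per2 differed by -0.14 (exact permutation p = 0.7) and Nr1d1 minus Nr1d2 by -0.20 (exact permutation p = 0.2), also with overlap.

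**Figure D2:**
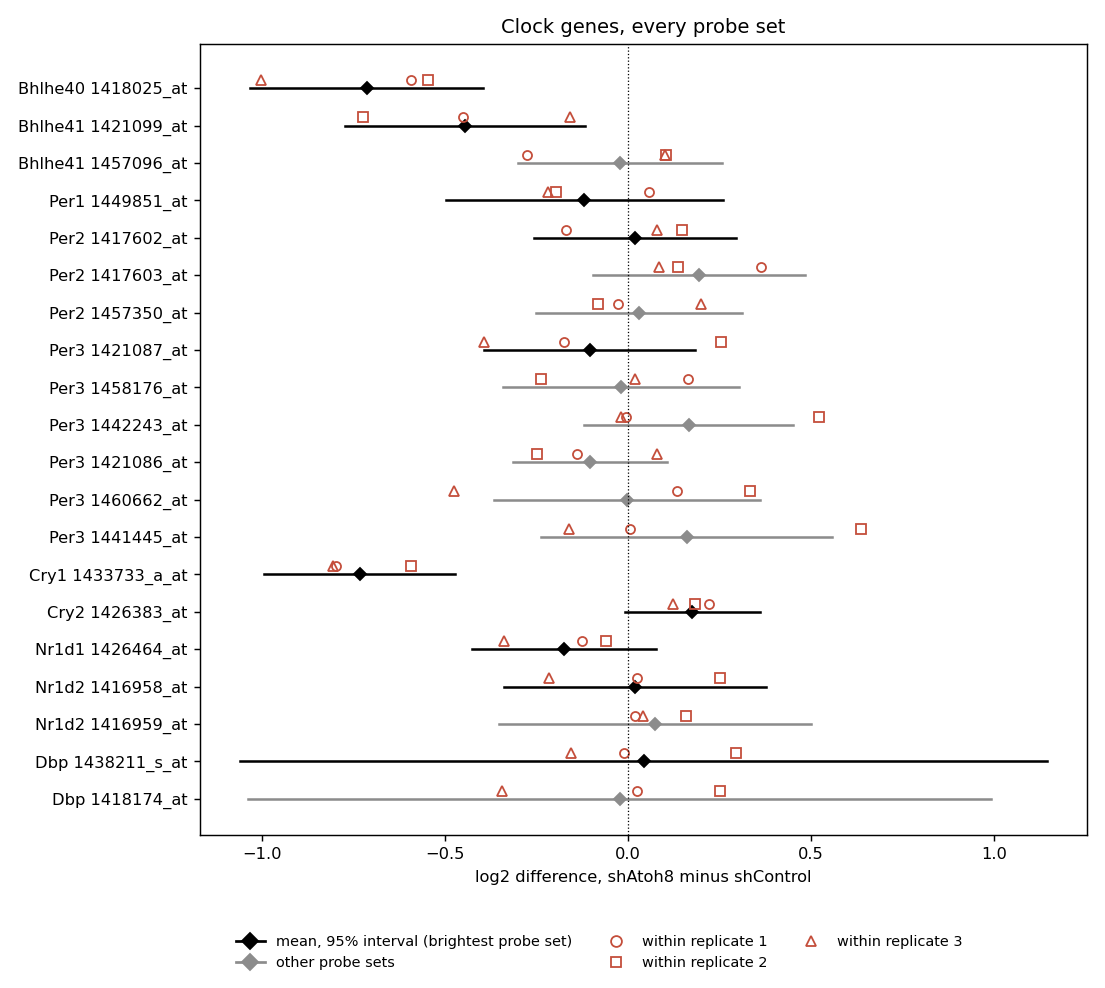
Log2 difference, shAtoh8 minus shControl, for all 20 probe sets of the 10 clock genes, with limma's 95% interval; black is the brightest probe set, grey the others, and open marks are the differences within replicates 1, 2 and 3. The intervals of Bhlhe40, Cry1 and the brightest probe set of Bhlhe41 leave out 0, and those of Dbp are the widest.

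None of the Period genes, whose proteins pair with the cryptochromes, passed (0 of 3 in limma, 0 of 3 at an unadjusted p under 0.05, and 0 of 3 with the replicate block). Over all genes the shares were 1.15%, 17.5% and 4.67%, so 0 of 3 shows nothing particular to these genes. Per1 (chr11:69095108-69109965) read 7.24, 7.28 and 7.55 in shAtoh8, against 7.18, 7.48 and 7.77 in shControl, a log2 fold change of -0.12 with a 95% interval of -0.50 to 0.26. In both groups replicate 3 was the highest array. Per2 (chr1:91415977-91459351) read 6.61, 6.77 and 6.51 in shAtoh8, against 6.77, 6.63 and 6.43 in shControl. Its log2 fold change was 0.02 (95% interval -0.26 to 0.30), and the other 2 probe sets read 0.20 and 0.03. Per3 (chr4:150997018-151044707) read 6.22, 6.44 and 6.14 in shAtoh8, against 6.39, 6.19 and 6.54 in shControl, a log2 fold change of -0.10 (-0.39 to 0.18). Of its 6 probe sets 4 were negative and 2 positive, from -0.10 to 0.17, and the groups overlapped on each.

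The REV-ERB receptors, repressors of Arntl, did not pass either. Nr1d1 (chr11:98767932-98775377) read 7.86, 7.76 and 7.85 in shAtoh8, against 7.99, 7.82 and 8.18 in shControl. It was lower in all 3 pairs, by -0.13, -0.06 and -0.34, with a log2 fold change of -0.17 and a 95% interval of -0.43 to 0.08 (limma adjusted p = 0.571). Nr1d2 (chr14:18204056-18239106) read 9.43, 9.45 and 9.58 in shAtoh8, against 9.40, 9.20 and 9.80 in shControl, a log2 fold change of 0.02 (-0.34 to 0.38), and 0.07 on its other probe set.

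Dbp (chr7:45705100-45710203), the D-box activator and a direct output of the clock, differed more between replicate numbers than between hairpins. It read 11.24, 11.25 and 9.79 in shAtoh8, against 11.25, 10.96 and 9.94 in shControl. In both groups replicate 3 was more than 1 log2 unit below the other arrays. The log2 fold change was 0.04 with a 95% interval of -1.06 to 1.15, which narrowed to -0.22 to 0.31 with the replicate block. Its other probe set, which read 11.10, 10.96 and 9.61 in shAtoh8 and 11.07, 10.70 and 9.95 in shControl, had the same pattern.

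That pattern led, after the values were seen, to a test of the replicate number itself, as a term in the block fit. The mean of Dbp over both hairpins was 11.25, 11.10 and 9.86 in replicates 1, 2 and 3, a range of 1.38 (log2), larger than that of 99.6% of all genes. The term passed for Dbp (limma adjusted p = 0.0374) and for no other of the 10 on its brightest probe set, where 0.572% of all genes passed. Per1 had the next smallest value (adjusted p = 0.283). On the other probe set of Dbp the range was 1.30 and the term missed the threshold (adjusted p = 0.0631). The call was also lost without replicate 1 or replicate 3 of either group (adjusted p from 0.185 to 0.235), with ranges of 1.23 to 1.53. Of the 10, 7 had their highest mean in replicate 3 (all but Bhlhe40, Per2 and Dbp), and 2, Per2 and Dbp, had their lowest there. The share of all genes with either order was not computed, so these counts show no pattern particular to the clock. The 7 include Per3 and Cry2, whose ranges were only 0.04 and 0.10. The range over replicate numbers exceeded the hairpin difference in 5 of the 10 (Per1, Per2, Nr1d1, Nr1d2 and Dbp), against 67.1% of all genes. These measures are unlike: the range is over 3 means of fewer arrays each, so it tends to be the larger without any effect. For Bhlhe40, Bhlhe41 and Cry1 the hairpin difference was the larger, at 0.71, 0.44 and 0.73 against ranges of 0.29, 0.27 and 0.25. It was also the larger for Per3 and Cry2, at 0.10 and 0.18 against ranges of 0.04 and 0.10.

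**Figure D3:**
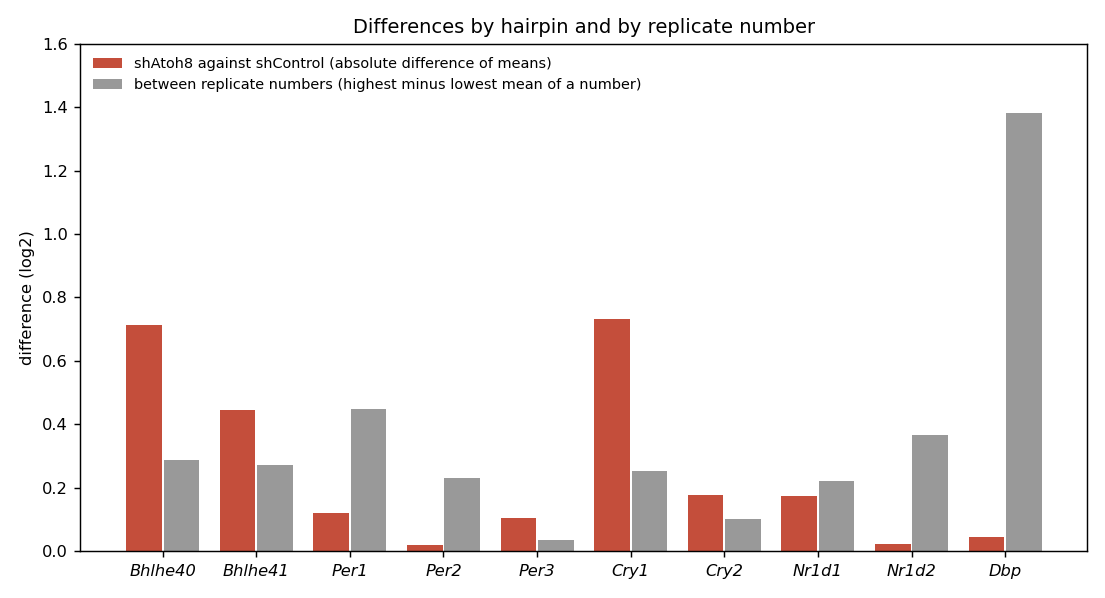
For each clock gene's brightest probe set, the absolute log2 difference between the means of shAtoh8 and shControl (red) beside the range of the means of replicate numbers 1, 2 and 3 (grey). Dbp has a range of 1.38 and a hairpin difference of 0.04, and Cry1 a range of 0.25 and a hairpin difference of 0.73.

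The rest of the clock pathway was read from 24 other genes that had a probe set with 1 symbol. This list too was made with earlier results of these data known, so its counts are a description. None passed limma (0 of 24, where 9 had an unadjusted p under 0.05, 8 of them lower, and 17.5% of all genes did). With the replicate block 3 of the 24 fell, Rora, Arntl and Nampt, and none rose (0), where 2.75% of all genes were lower and 1.92% higher. The median log2 fold change of the 24 was -0.08, against 0.01 over all genes. The groups did not overlap for 9 (24.0% of all genes), with shAtoh8 below in 8 (11.4%) and above in 1 (12.6%).

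Rora, the ROR receptor that activates Arntl, had the most negative value of the list. It read 5.10, 5.87 and 5.21 in shAtoh8, against 6.19, 6.80 and 6.52 in shControl. The groups did not overlap, and in both the replicate 2 array was the highest. Its log2 change was -1.11 ± 0.23 (SE), 2.16-fold lower (limma adjusted p = 0.0853, and 0.0162 with the replicate block). Rora passed when the shAtoh8 replicate 2 array was dropped (limma adjusted p = 0.0458). Dropping any other single array, of either group, left it short of the threshold (limma adjusted p of 0.129 to 0.254). Of its 9 probe sets 8 were negative, 3 passed with the replicate block, and as the mean of the 9 Rora read -0.48.

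The activators differed in sign. Arntl, which encodes BMAL1, read 7.78, 7.92 and 7.74 in shAtoh8, against 8.24, 8.27 and 8.22 in shControl, again with no overlap. Its log2 fold change was -0.43 ± 0.08 (SE; limma adjusted p = 0.0680, and 0.0488 with the replicate block), while its other, dimmer probe set read -0.10. Clock read 8.87, 8.63 and 8.69 in shAtoh8, against 8.60, 8.27 and 8.51 in shControl, with a log2 fold change of 0.27 and an adjusted p of 0.362. All 4 of its probe sets were positive, and 1 of the others, at 0.55, passed with the replicate block (adjusted p = 0.0451, and 0.0528 without it). Arntl2 read -0.02 and Npas2 -0.09 (log2 fold change), neither past the test.

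Nampt, the NAD salvage enzyme whose gene the clock drives, read 9.11, 9.43 and 8.64 in shAtoh8, against 9.71, 9.93 and 9.64 in shControl. The log2 fold change was -0.70 ± 0.20 (SE; limma adjusted p = 0.162, and 0.0395 with the replicate block), and all 3 of its probe sets passed with the block. The 3 smallest p-values of the list in limma were those of Arntl, Rora and Noct, the last a clock-controlled phosphatase (-0.60 ± 0.17, adjusted p = 0.161). The relatives of Dbp that share its D-box, Tef and Hlf, read 0.22 and 0.11, and Nfil3, which represses there, 0.03. None of these passed the test (0 of 3, where 1.15% of all genes passed).

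**Figure D4:**
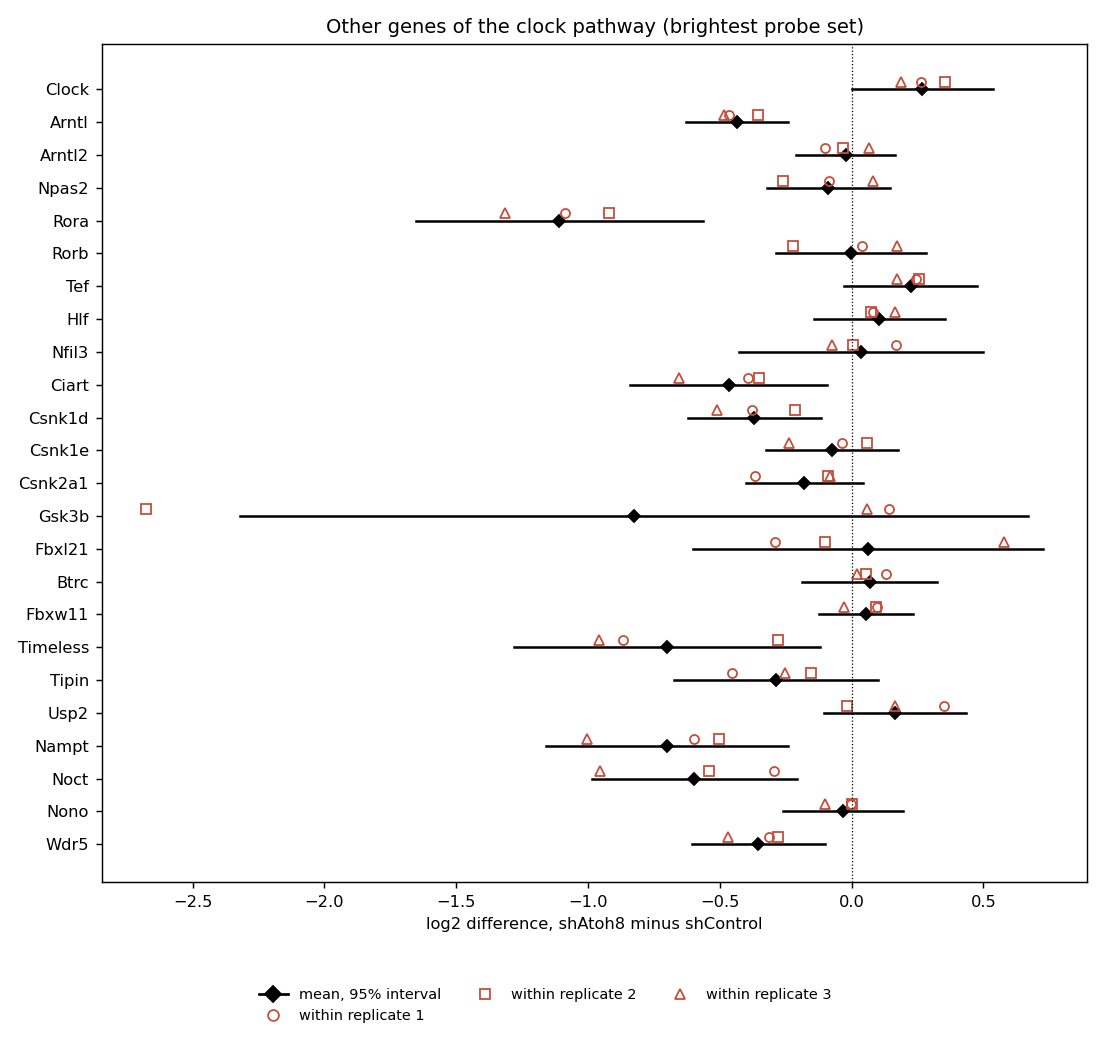
Log2 difference, shAtoh8 minus shControl, for the brightest probe sets of the 24 other clock genes, with limma's 95% interval and open marks for the differences within replicates 1, 2 and 3. Of the 24, 10 lie below 0 in all 3 pairs (21.5% of all genes), among them Rora, Arntl and Nampt. Another 4, among them Clock, lie above 0 in all 3 (24.0% of all genes). Gsk3b has 1 pair at -2.67 and the others near 0.

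The genes whose profile over the 6 arrays lay nearest to that of Bhlhe40, by the root mean square difference of log2 values centred on each gene's mean among 18193 genes, were Bcl6 (0.0602), Birc3 (0.0760) and Mia3 (0.0771). Bcl6, a transcriptional repressor, read 7.15, 7.30 and 6.90 in shAtoh8, against 7.67, 7.90 and 7.92 in shControl. As with Bhlhe40, its replicate 3 pair was the widest, at -1.02, which follows from choosing the gene by this profile. Birc3, an inhibitor of apoptosis, had a log2 fold change of -0.82, and Mia3, a cargo receptor of endoplasmic reticulum exit sites, of -0.65. The likeness rests on 6 arrays and is a description.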

How the data were processed

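Biotin-labelled cRNA from 6 samples was hybridised to Affymetrix arrays. The authors deposited 1 log2 signal for each probe set and array, made with RMA in the affy package per the submitters' processing notes (versions not given in the sources used here). RMA puts all arrays on a common distribution, which would remove a shift of most genes in 1 direction. Of 45101 probe sets, 64 controls were left out. The platform annotation gave 1 symbol to 34945 probe sets.

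The comparison was shAtoh8 minus shControl in limma 3.58.1 (R 4.3.3; lmFit and eBayes, two-sided, Benjamini-Hochberg over 45037 probe sets, threshold 0.05). Intervals are limma's at 95%. The fit was also run on simulated arrays, whose outcome is not reported here and is not used for any result. Replicate numbers were taken as pairs, and the labels name independent experiments. Deviations from the group means correlated at 0.407, 0.187 and 0.433 between arrays of the same number. Between arrays of different numbers they correlated at -0.351 to 0.029. Deviations cancel within a group, so these values are not independent of each other. The labels do not say outright that a number marks the same experiment in both groups, so the pairing rests on these correlations. The block therefore stands beside each result whose call it changes. Alternatives covered the block, normalization, brightness, the variance model, the choice of probe sets and each array left out. Genes named outside the 10 were those of the clock list that passed in either fit or had the 3 smallest p-values, the 3 profiles nearest to Bhlhe40, and others of the list chosen after their values were seen. The genes and lists were chosen with earlier results of these data known. The number of arrays limits the precision.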

Additional observations from a re-analysis of the deposited data

How the results depend on the processing

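Cry1 stayed past the threshold under the 6 alternatives that kept all arrays and its probe set, and lost its call whenever 1 array was left out, when 0 of the 10 clock genes passed (0 to 0). Bhlhe40 kept its sign under all 13 alternatives (-0.83 to -0.64 with 1 array left out), with adjusted p-values from 0.0373 to 0.228. The count of the 10 was 2 with the replicate block, when a gene's probe sets were averaged, and under a robust variance model with a trend, where Bhlhe40 was the addition (0.0375, 0.0373 and 0.0499). It was 0 without _s_at, _x_at and _a_at probe sets, which leaves out Cry1. The other clock genes gave 3 calls with the replicate block and 0 to 1 with an array left out. Over all genes, 210 passed, against 849 with the replicate block, 324 among brighter probe sets, 459 with probe sets averaged and 0 to 117 with an array left out (0 without shControl replicate 2, 2641 of them at an unadjusted p under 0.05). The block changed no other call among the 10. Signs turned for genes near 0. Median centring gave -0.0018 for Per2 and -0.00071 for Nr1d2, averaging probe sets gave 0.017 for Per3, and leaving out the suffixed sets gave -0.022 for Dbp. With an array left out Per1 ranged from -0.27 to 0.028, Per2 from -0.071 to 0.10, Per3 from -0.20 to -0.02, Nr1d1 from -0.26 to -0.08, Nr1d2 from -0.11 to 0.19 and Dbp from -0.34 to 0.53. Per1 minus Per2 ranged from -0.37 to 0.10, Bhlhe40 minus Bhlhe41 from -0.51 to -0.04, and Cry1 minus Cry2 from -1.01 to -0.84. The cause of these changes was not tested, apart from the sets and arrays left out.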

Other observations

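Some probe sets of clock kinases stood far below their group on the shAtoh8 replicate 2 array alone. That array had the lowest hybridisation spikes, and any link between these was not tested. The brightest probe set of Gsk3b, a kinase that phosphorylates clock proteins, read 9.91, 7.25 and 9.67 in shAtoh8, against 9.77, 9.92 and 9.61 in shControl. A further set of Gsk3b also dropped, at 9.12, 8.28 and 9.11 in shAtoh8, against 9.06, 9.14 and 8.99 in shControl. Another of its sets read 9.19, 9.21 and 9.33 in shAtoh8, against 9.22, 9.25 and 9.26 in shControl, with no such drop. The dimmer sets of Gsk3b were each highest on the shAtoh8 replicate 2 array. They read 7.33, 7.42 and 7.06 in shAtoh8, against 7.16, 6.99 and 6.64 in shControl. The next read 6.47, 7.14 and 6.36 in shAtoh8, against 6.10, 6.24 and 6.39 in shControl. The dimmest read 5.95, 6.69 and 6.08 in shAtoh8, against 5.76, 6.11 and 6.30 in shControl. A probe set of Csnk2a1, the catalytic subunit of casein kinase 2, read 9.44, 6.78 and 9.29 in shAtoh8, against 9.29, 9.31 and 9.11 in shControl. Its brightest set read 9.08, 9.34 and 9.33 in shAtoh8, against 9.45, 9.43 and 9.42 in shControl. The drops were therefore seen on some probe sets of a gene and not on others. Without shAtoh8 replicate 2 the log2 fold change of the brightest Gsk3b set was 0.02, against -0.82 with all arrays.

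Timeless and Tipin, partners at the replication fork that are named for the clock, read -0.70 and -0.29 (log2 fold change, limma adjusted p = 0.262 and 0.537). Timeless was lower in all 3 pairs, by -0.87, -0.28 and -0.96, and its other probe set passed with the replicate block (-0.95, adjusted p = 0.0162). Ciart, a repressor of CLOCK and BMAL1, was lower in all 3 pairs, by -0.39, -0.35 and -0.65 (adjusted p = 0.246, and 0.0599 with the replicate block). These genes were singled out after their values were seen.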
